A study of Anas platyrhynchos and Gallus gallus and Anas rubripes with 21 samples.

Results

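Rab GTPases are small membrane-bound switches that mark the compartments of the cell. In its GTP-bound form a Rab recruits effectors, among them tethers, motor adaptors and kinases, which move, dock or fuse vesicles. Exchange factors turn it on and GTPase-activating proteins turn it off. In sensory neurons, whose terminals lie far from the cell body, this traffic delivers membrane proteins to the axon and returns receptors from it, and *RAB3* and *RAB27* proteins act in regulated secretion. The family was examined here in the trigeminal ganglion (TG), which holds the neurons that sense touch in the bill, by asking whether *RAB4A*, a Rab of the early endosome that returns cargo rapidly to the plasma membrane, is the only member whose level follows *PIEZO2*, the mechanically gated channel of touch neurons.

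Members were the rows whose consensus gene symbol is RAB, a number and an optional letter. There were 57 such rows among the 20451 of the table, and none carried a copy suffix. *RAB10L* and *RAB18L* fit the rule only because their L reads as the letter. By annotation there were 45 members annotated in duck and chicken alike, 9 annotated only in chicken and 3 only in duck. A mean of at least 1 RPKM (reads normalised to transcript length and to library size) over the species was reached by 50 members, against 12497 rows in all. The 7 members under it were *RAB17*, *RAB25*, *RAB2B*, *RAB36*, *RAB38*, *RAB42* and *RAB44*, and of these *RAB36* had the highest mean, at 0.941 RPKM.

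TG were taken from embryos of 6 duck species and chicken, with 3 birds per species and 21 in all. The ducks were Pekin duck at embryonic day 25 to 26, black duck at day 21 to 22, lesser scaup at day 25 to 26, ruddy duck at day 30 to 31, wood duck at day 28 to 31 and harlequin duck at day 28 to 29, and chicken was at day 19 to 21. According to the paper, embryos of all species were taken shortly before hatching, after they had broken the inner shell membrane. The labels name no treatment or introduced allele. Each species has 1 value per gene, the authors' mean of its birds, so the spread between birds and the depth of each library are unknown, and age in days cannot be told apart from species. In RNA of whole ganglia, fewer cells of a type and less RNA per cell cannot be told apart either.

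Neuronal markers were present in every species. The summed level of 11 neuronal markers in the table was 3936 to 5008 RPKM in ducks and 4343 RPKM in chicken, and 4 of them stand in the chicken annotation alone. Markers of Schwann cells and satellite glia (7 genes) summed to 6042 to 10362 RPKM in ducks and 5294 RPKM in chicken. Leukocyte markers (5 genes) summed to 93.9 to 130 RPKM in ducks and 157 RPKM in chicken, and endothelial markers (5 genes) to 22.9 to 59.3 RPKM in ducks and 72.6 RPKM in chicken. Muscle markers (4 genes) ranged most, from 6.21 to 174 RPKM in ducks, with 18.3 RPKM in chicken. None of these markers was at 0 in any species. Over 7 species, Pearson *r* of the summed level with *PIEZO2* was -0.17 for neurons, 0.53 for glia, -0.72 for leukocytes, 0.22 for muscle and -0.53 for endothelium. With *RAB4A* it was 0.04, 0.55, -0.80, 0.21 and -0.64, in that order. The part of these cell types in the results on Rab genes was not tested.

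*PIEZO2* was at 101.8 RPKM in Pekin duck, 99.7 in black duck, 101 in lesser scaup, 92.4 in ruddy duck, 81.5 in wood duck and 68.3 in harlequin duck, against 48.2 in chicken. *RAB4A* (duck gene 101805006, chicken gene 421532, annotated in both genomes) was at 235 RPKM in Pekin duck, 222 in black duck, 214 in lesser scaup, 203 in ruddy duck, 187 in wood duck and 139 in harlequin duck, against 40.7 in chicken. All ducks lay above chicken for both genes, and harlequin duck was the lowest duck for both. The level of *RAB4A* was 2.04 to 2.30 times that of *PIEZO2* in the ducks and 0.845 times it in chicken.

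Across the 7 species means, *RAB4A* had a Pearson *r* of 0.977 with *PIEZO2* (exact permutation p = 0.000595, Spearman rho = 0.964, exact permutation p = 0.00278). This value was the reason for asking about *RAB4A*. It and the values below over fewer species, which reuse the same levels, are descriptions and not independent evidence. Among the 6 ducks alone *r* was 0.971 (exact permutation p = 0.00417) and rho was 0.943 (exact permutation p = 0.0167). With chicken and harlequin duck left out, the species farthest from the median *PIEZO2* level, *r* was 0.917 (exact permutation p = 0.025). By rank of *r*, *RAB4A* was 4th of 12496 rows over 7 species and 6th of 12468 over the ducks. The p-values are two-sided and treat species as exchangeable, so they do not allow for relatedness among the ducks. After Benjamini-Hochberg adjustment over all rows no member passed, and the lowest adjusted p in the table was 0.363 over 7 species (exact permutation) and 1 over the ducks.

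*RAB4A* was not the only member with an unadjusted exact p under 0.05 over 7 species, but it was the only one with a positive *r* past that threshold among the ducks. Over 7 species, 5 of 50 members were positively correlated with *PIEZO2*, against 6.25% of all rows tested, and 6 of 50 were negatively correlated, against 6.73%. Over the 6 ducks, 1 member was positively correlated, against 1.52% of rows, and 2, *RAB1A* and *RAB1B*, were negatively correlated, against 2.55%. Whether *RAB1A* and *RAB1B* are separate genes here was not tested. *RAB4A* alone among the members was positive over 7 species and over the ducks, as were 0.834% of rows. Of 30 members with a positive *r* over 7 species, 16 had a negative *r* over the ducks, and the share of all rows that did so was not computed. Over the ducks, *r* was negative for 28 of 50 members and for 6122 of 12468 rows. The median *r* of the members was 0.24 over 7 species, against 0.14 for all rows, and -0.13 over the ducks, against 0.01 for all rows.

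The other 4 positive members were *RAB40B*, *RAB40C*, *RAB28* and *RAB39B*, and all had chicken below every duck. Chicken was also the lowest species for *PIEZO2*, and it was below all ducks in 35.9% of all rows. The share of positive rows with chicken lowest was not computed. *RAB40B* and *RAB40C* carry a SOCS box, through which Rab40 proteins join a cullin ubiquitin ligase. *RAB40B* was at 13.1 RPKM in Pekin duck, 13.9 in black duck, 10.4 in lesser scaup, 10.6 in ruddy duck, 8.98 in wood duck and 9.07 in harlequin duck, against 1.94 in chicken. Its *r* was 0.917 over 7 species (exact permutation p = 0.00417) and 0.754 over the ducks (exact permutation p = 0.101). *RAB40C* was at 49.4 RPKM in Pekin duck, 46.5 in black duck, 41.7 in lesser scaup, 44.1 in ruddy duck, 46.0 in wood duck and 35.5 in harlequin duck, against 9.81 in chicken. Its *r* was 0.893 over 7 species (exact permutation p = 0.0117) and 0.714 over the ducks (exact permutation p = 0.104). Spearman rho over 7 species was 0.786 for *RAB40B* (exact permutation p = 0.048) and 0.75 for *RAB40C* (exact permutation p = 0.0663). By rank of *r* over the ducks, *RAB40B* was 333rd and *RAB40C* 453rd of 12468 rows. When chicken and harlequin duck were left out, *RAB40B* had an *r* of 0.739 and *RAB40C* of 0.050.

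*RAB28*, a Rab found at the cilium, was at 12.4 RPKM in Pekin duck, 13.6 in black duck, 18.7 in lesser scaup, 16.7 in ruddy duck, 11.8 in wood duck and 13.1 in harlequin duck, against 6.27 in chicken. *RAB39B*, a Rab of the Golgi and early secretory route that is known in humans for its link to intellectual disability, was at 94.4 RPKM in Pekin duck, 97.1 in black duck, 105 in lesser scaup, 63.3 in ruddy duck, 80.1 in wood duck and 93.8 in harlequin duck, against 22.5 in chicken. Their *r* over 7 species was 0.769 for *RAB28* (exact permutation p = 0.0496) and 0.766 for *RAB39B* (exact permutation p = 0.0411), and rho was 0.536 (exact permutation p = 0.236) and 0.75 (exact permutation p = 0.0663). Over the ducks it was 0.397 for *RAB28* and 0.232 for *RAB39B*, and neither passed the threshold there. *RAB39B* also lost its call after median-ratio scaling (*r* of 0.631, exact permutation p = 0.114). After quantile normalization both lost it, *RAB28* with an *r* of 0.672 (exact permutation p = 0.102) and *RAB39B* of 0.721 (exact permutation p = 0.0536).

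**Figure D1:**
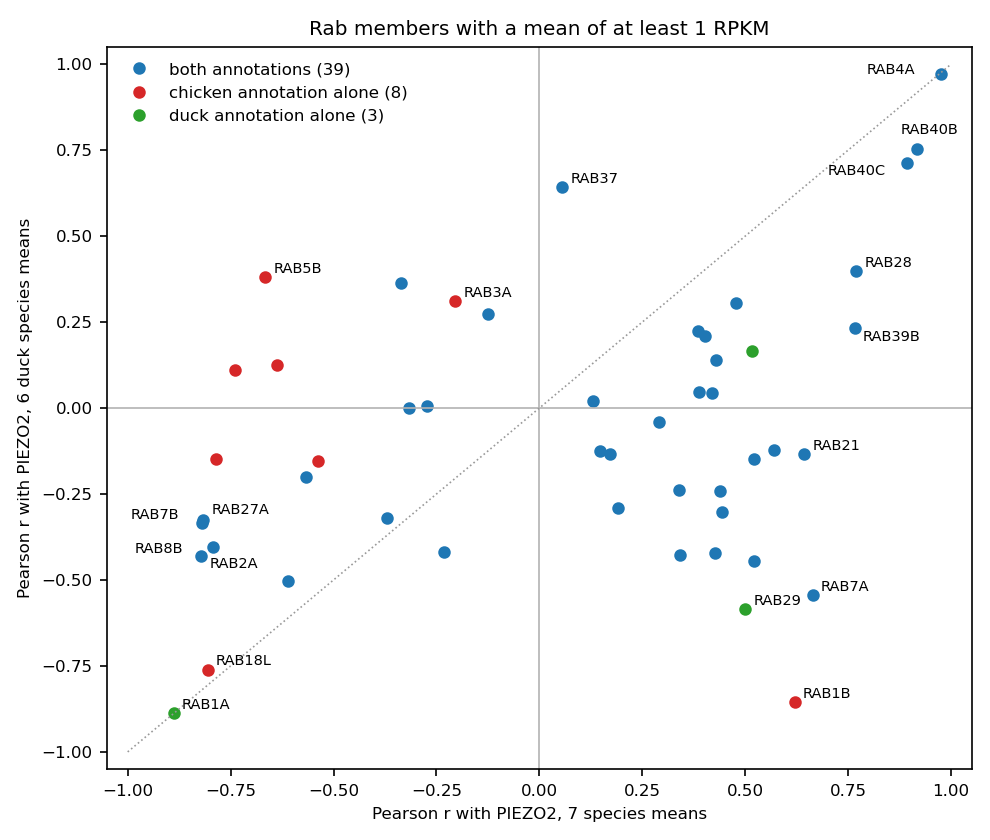
Pearson *r* with *PIEZO2* over 7 species (x axis) and over the 6 ducks (y axis), with 1 point per member with a mean of at least 1 RPKM. *RAB4A* lies at 0.977 and 0.971, while *RAB28* and *RAB39B* lie at 0.769 and 0.766 over 7 species but at 0.397 and 0.232 over the ducks.

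The members whose level was most like that of *RAB4A* were *RAB40C*, *RAB40B* and *RAB39B*. Over 7 species their *r* with *RAB4A* was 0.969, 0.950 and 0.808, in that order, and over the 6 ducks it was 0.858, 0.773 and 0.125. These values are descriptions over species means that share libraries and ancestry. The median *r* over the 1225 pairs of members was 0.01 over 7 species and 0.08 over the ducks.

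The 6 negative members were *RAB1A*, *RAB2A*, *RAB7B*, *RAB27A*, *RAB18L* and *RAB8B*, and all had chicken above every duck. Chicken was above all ducks in 26% of all rows, and the share of negative rows with chicken highest was not computed. *RAB1A*, which acts in transport from the endoplasmic reticulum to the Golgi, was at 238 RPKM in Pekin duck, 234 in black duck, 246 in lesser scaup, 255 in ruddy duck, 262 in wood duck and 264 in harlequin duck, against 395 in chicken. Its *r* was -0.888 over 7 species (exact permutation p = 0.000992) and -0.888 over the ducks (exact permutation p = 0.0153), and rho over 7 species was -0.893 (exact permutation p = 0.0123). *RAB2A*, which acts between the Golgi and the endoplasmic reticulum, was at 285 to 402 RPKM in ducks and 498 RPKM in chicken, and *r* was -0.821 over 7 species (exact permutation p = 0.0274) and -0.430 over the ducks. After scaling of the species by their median ratio, neither passed the threshold, with exact permutation p of 0.067 for *RAB1A* and 0.077 for *RAB2A*. Neither passed after quantile normalization, with exact permutation p of 0.068 for *RAB1A* and 0.070 for *RAB2A*.

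*RAB27A*, which docks secretory granules and lysosome-related organelles, was at 10.0 to 15.1 RPKM in ducks and 40.5 RPKM in chicken. *RAB7B* was at 1.26 to 3.52 RPKM in ducks and 8.86 RPKM in chicken. *RAB8B*, which acts in transport to the plasma membrane, was at 18.0 to 31.4 RPKM in ducks and 40.3 RPKM in chicken. *RAB18L*, in the chicken annotation alone, was at 0.509 to 0.944 RPKM in ducks and 16.8 RPKM in chicken. Their *r* over 7 species was -0.817 for *RAB27A* (exact permutation p = 0.0381), -0.820 for *RAB7B* (exact permutation p = 0.0367) and -0.792 for *RAB8B* (exact permutation p = 0.0298), and none of these 3 passed the threshold by rank. *RAB18L* had an *r* of -0.806, but it was under 1 RPKM in every duck and reached the mean of 1 RPKM only through chicken. That filter fixed its higher level in chicken, so its call is not independent of the filter. Without *RAB18L*, 5 of 49 members were negative. Median-ratio scaling also ended the call of *RAB8B* (*r* of -0.525, exact permutation p = 0.206), as did quantile normalization (*r* of -0.718, exact permutation p = 0.0528). Over the ducks alone none of these 4 passed the threshold, with *r* between -0.761 for *RAB18L* and -0.327 for *RAB27A*.

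The calls were also counted by annotation. Among rows in both annotations, 5 of 39 members were positive, against 6.55% of such rows, and 4 of 39 were negative, against 5.37%. Among rows of the chicken annotation alone, 0 of 8 members were positive, against 1.8%, and 1 of 8 was negative, against 19.6%. That member was *RAB18L*. Among rows of the duck annotation alone, 0 of 3 members were positive, against 8.62%, and 1 of 3 was negative, against 3.75%. All 5 positive members, *RAB4A* included, thus stood in both annotations. The median *r* was 0.34 for members in both annotations and -0.65 for those annotated only in chicken, against 0.18 and -0.62 for all rows of those kinds.

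*RAB1A* and *RAB1B*, by their symbols close paralogues with the same transport step, were annotated in 1 genome each. *RAB1B*, in the chicken annotation alone, was at 376 RPKM in Pekin duck, 377 in black duck, 387 in lesser scaup, 403 in ruddy duck, 425 in wood duck and 415 in harlequin duck, against 228 in chicken. Its *r* with *PIEZO2* was 0.62 over 7 species (exact permutation p = 0.14) and -0.854 over the ducks (exact permutation p = 0.0236). *RAB1B* was thus higher in all ducks than in chicken, whereas *RAB1A*, in the duck annotation alone, was lower in all ducks. The level of *RAB1B* was 1.57 to 1.62 times that of *RAB1A* in ducks and 0.578 times it in chicken, and their sum was 612 to 686 RPKM in ducks and 624 RPKM in chicken. Whether both rows count reads of the same transcripts, or are the same gene under different symbols, was not tested.

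The members as a whole stood near all rows in their ratio of ducks to chicken. On the log2(RPKM + 1) scale, the median ratio of the mean of the ducks to chicken was 0.24 for the members and 0.22 for all rows tested, and no ratio has a test, since each species has 1 value. A ratio of at least 2-fold higher in ducks was seen for 11 of 50 members, against 20.3% of rows, and of at least 2-fold lower for 6 of 50, against 12.1%. Chicken was below all ducks for 22 members, against 35.9% of rows, and above all ducks for 14, against 26%. Scaling by the median ratio moved the median of all rows to 0.04.

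Of the 11 members higher in ducks, 5 were those called positive over 7 species, and 5 had a negative *r* over the ducks. The matching shares of all rows higher in ducks were not computed. *RAB7A*, the main Rab of the late endosome and lysosome, was at 183 to 249 RPKM in ducks and 39.6 RPKM in chicken, a log2 ratio of 2.45. *RAB4A* had a log2 ratio of 2.27, *RAB40C* of 2.05 and *RAB40B* of 2.03. *RAB7A* therefore stood as far above chicken as *RAB4A*, but its *r* with *PIEZO2* over the ducks was -0.543 (exact permutation p = 0.271). *RAB6A*, which acts in traffic at the Golgi, was at 224 to 768 RPKM in ducks and 147 RPKM in chicken, and *r* was -0.241 over the ducks. *RAB21*, a Rab of the early endosome that acts in integrin traffic, was at 89.7 to 143 RPKM in ducks and 35.8 RPKM in chicken, and *r* was -0.135 over the ducks.

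*RAB29*, in the duck annotation alone, had the largest ratio of the members, with 7.82 to 15.0 RPKM in ducks and 0.361 RPKM in chicken. *RAB27B*, also in the duck annotation alone, was at 0.636 to 4.39 RPKM in ducks and listed at 0 in chicken. *RAB20* was at 20.1 to 34.1 RPKM in ducks and 12.9 RPKM in chicken. By annotation, 9 of 39 members in both annotations were at least 2-fold higher in ducks, against 19.1% of such rows, 0 of 8 annotated only in chicken, against 6.44%, and 2 of 3 annotated only in duck, against 44%. These 2, *RAB29* and *RAB27B*, were under 1 RPKM in chicken and reached the mean of 1 RPKM only through the ducks, so that they had to differ.

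Of the 6 members lower in ducks, 4 stood in the chicken annotation alone, 4 of 8 such members, against 44% of such rows. *RAB18L* is one of them and was tested only through its level in chicken, and without it the count was 3 of 7. The 4 were *RAB18L*, *RAB15*, *RAB5B* and *RAB24*. *RAB15* was at 4.89 to 10.9 RPKM in ducks and 26.7 RPKM in chicken, *RAB5B*, a Rab of the early endosome, at 9.65 to 29.9 RPKM in ducks and 66.2 RPKM in chicken, and *RAB24* at 1.07 to 2.68 RPKM in ducks and 6.36 RPKM in chicken. The others were *RAB7B* and *RAB27A*, 2 of 39 members in both annotations, against 8.14% of such rows. No member in the duck annotation alone was 2-fold lower, against 9.26% of such rows.

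**Figure D2:**
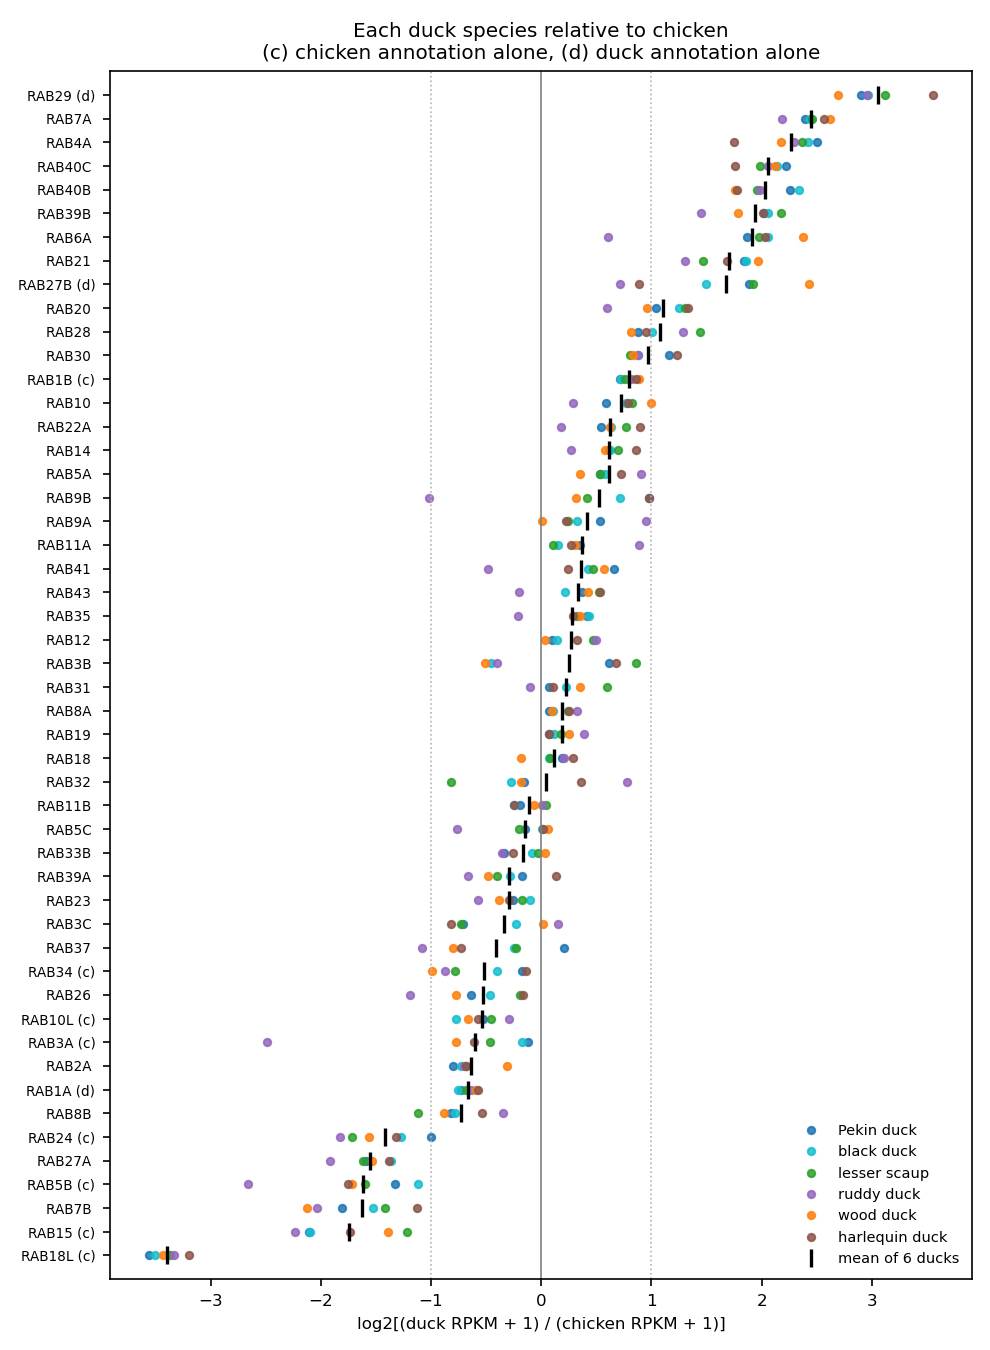
Log2 ratio of each duck species to chicken (x axis, on the log2(RPKM + 1) scale) for each member with a mean of at least 1 RPKM, with a point per species, a black bar for the mean of the 6 ducks and letters for members annotated only in chicken (c) or duck (d). *RAB7A* at 2.45 stands beside *RAB4A* at 2.27, and 4 of the 6 members at least 2-fold lower in ducks are annotated only in chicken.

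By transport route, counts of called members were small, and they stand against 6.25% positive and 6.73% negative among all rows. On the early endosome route, 1 of 9 members tested was positive, *RAB4A*, and 0 were negative. *RAB5A*, which drives early endosome fusion, was at 112 to 164 RPKM in ducks and 87.4 RPKM in chicken (*r* of 0.52, exact permutation p = 0.233), and *RAB14* was at 132 to 198 RPKM in ducks and 109 RPKM in chicken (*r* of 0.43, exact permutation p = 0.336). *RAB5C* was at 36.3 to 65.1 RPKM in ducks and 62.3 RPKM in chicken, so that chicken lay within the ducks. On the recycling endosome and plasma membrane route, 0 of 7 members were positive and 1, *RAB8B*, was negative. *RAB11A*, the main Rab of slow recycling, was at 230 to 395 RPKM in ducks and 213 RPKM in chicken (*r* of 0.29, exact permutation p = 0.522).

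Regulated exocytosis held 7 members tested, none of them positive and 1, *RAB27A*, negative, against the same shares of all rows. *RAB3A*, the Rab of synaptic vesicles, stood in the chicken annotation alone, where 44% of rows were at least 2-fold lower in ducks. It was at 120 RPKM in Pekin duck, 116 in black duck, 94.0 in lesser scaup, 22.4 in ruddy duck, 75.6 in wood duck and 84.9 in harlequin duck, against 130 in chicken. *RAB3C* was at 33.2 to 65.7 RPKM in ducks and 59.2 RPKM in chicken. The late endosome and lysosome list held 8 members tested with 0 positive and 1 negative, and the endoplasmic reticulum and Golgi list 12 with 1 positive and 2 negative, again against 6.25% and 6.73%. Of the SOCS-box members 2 of 2 were positive, and of the cilium members 1 of 3, *RAB28*, against the same 6.25%. In these lists 0 were negative. *RAB10L* and *RAB18L* were on no list. The highest mean levels of the family, in RPKM, belonged to *RAB6A*, *RAB1B*, *RAB2A*, *RAB1A* and *RAB11A*. *RAB4A* made up 3.42% to 5.88% of the summed RPKM of the members in ducks and 1.32% in chicken.

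**Figure D3:**
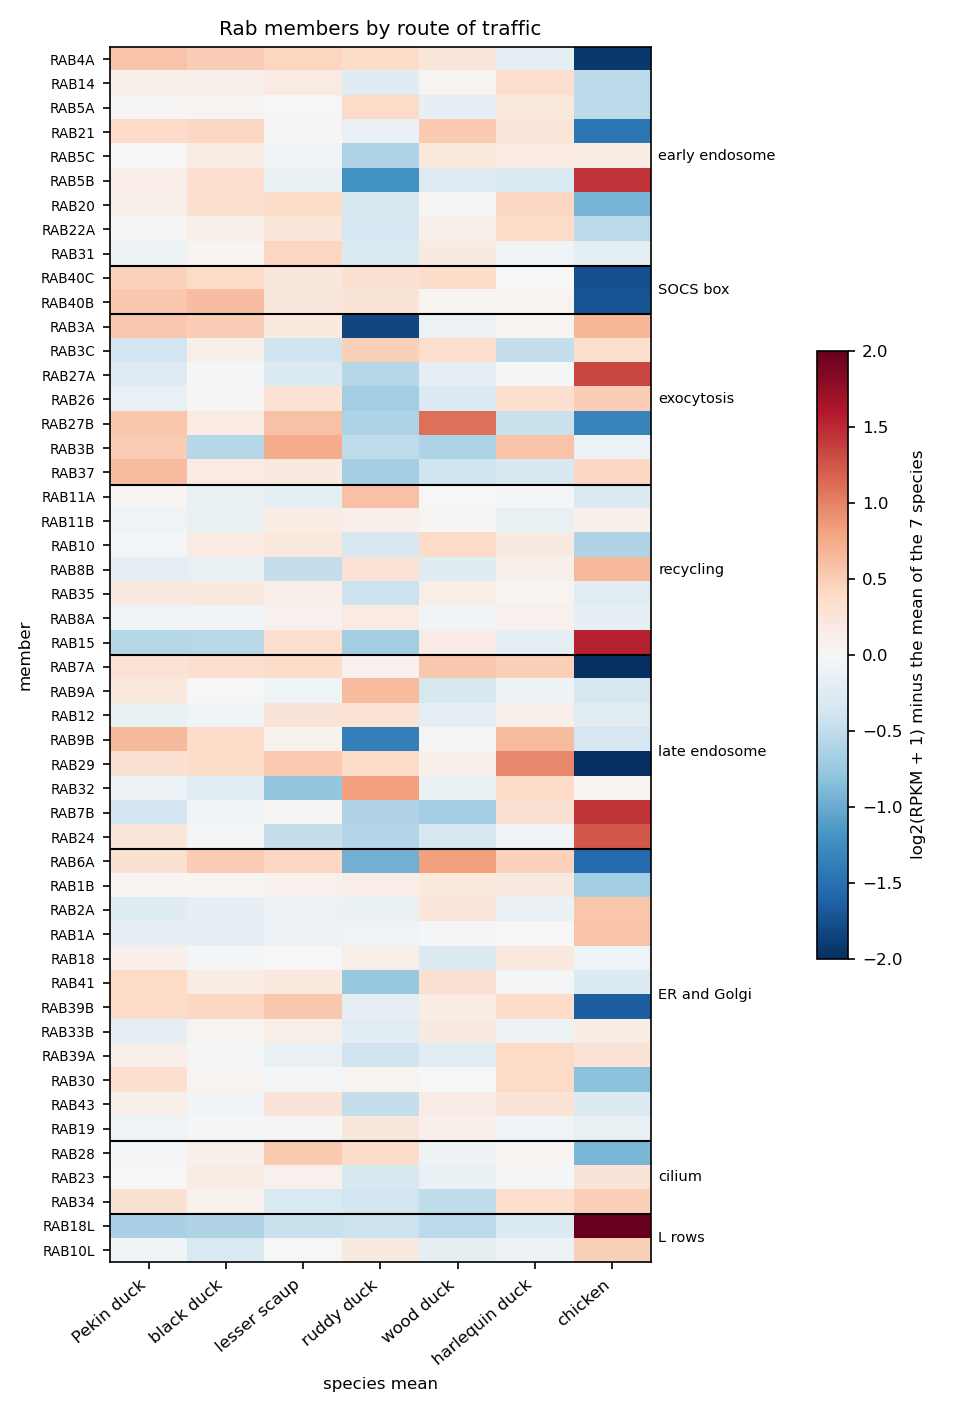
Log2(RPKM + 1) of each member minus its own mean over the 7 species, with a column per species and rows grouped by transport route. Colours stop at the ends of the scale. Chicken is the lowest column for *RAB4A*, *RAB7A*, *RAB40B* and *RAB40C*, and ruddy duck is low for *RAB3A*, *RAB6A* and *RAB9B*.

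Among the ducks, the members had a median coefficient of variation of 18.7%, against 28.4% for all rows tested, and a median level of 26.2 RPKM, against 10.6 RPKM. The highest duck was at least 2-fold above the lowest for 14 of 50 members, against 58% of rows, and ruddy duck was the lowest duck in 10 of these 14, against 55.2% of such rows. On the log2(RPKM + 1) scale, ruddy duck differed by at least 2-fold from the mean of the other ducks for 10% of members and 21.8% of all rows. Ruddy duck was the lowest duck for 25 of 50 members, against 45.5% of rows, and the highest for 10, against 21.3%. Besides *RAB3A*, *RAB6A* was at 224 RPKM in ruddy duck and 541 to 768 RPKM in the other 5 ducks. *RAB9B*, a relative of the late endosome Rab *RAB9A*, was at 5.75 RPKM in ruddy duck and 16.0 to 26.1 RPKM in the other ducks. *RAB37* and *RAB27B* had the largest ratios of highest to lowest duck, at low levels of at most 2.12 and 4.39 RPKM.

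Proteins that work with Rabs were compared with *PIEZO2* in the same way. Of 97 listed effectors, exchange factors and regulators, 85 were in the table and 80 were tested. Over 7 species 7 were positive and 2 negative, against 6.25% and 6.73% of all rows, and over the ducks 1 was positive and 0 negative, against 1.52% and 2.55%. *RAB3GAP1*, a subunit of the GTPase-activating complex of Rab3, was positive in both. It was at 47.4 RPKM in Pekin duck, 46.0 in black duck, 42.7 in lesser scaup, 38.2 in ruddy duck, 34.4 in wood duck and 31.1 in harlequin duck, against 29.2 in chicken, with an *r* of 0.920 over 7 species (exact permutation p = 0.000794) and 0.942 over the ducks (exact permutation p = 0.00417). The other positive genes were *RIN3*, *BICD1*, *MYO5B*, *UNC13D*, *APPL2* and *DENND4C*, with *r* of 0.745 to 0.854, and the negative genes were *RAB11FIP2* at -0.859 and *SYTL2* at -0.828. Of the positive genes, *RIN3*, *UNC13D* and *MYO5B* were under 1 RPKM in chicken, at 0.977, 0.265 and 0.034 RPKM. They reached the mean of 1 RPKM only through the ducks, so their calls are not independent of that filter. Over the ducks their *r* was 0.754, 0.577 and 0.353.

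Of 14 tested partners of Rab4 and Rab5, *RIN3* and *APPL2* were positive and none was negative, against the same 6.25% and 6.73% of all rows. As stated above, *RIN3* was tested only through its level in the ducks. *RABEP1*, which encodes the effector rabaptin-5 that binds both Rab4 and Rab5, was at 67.5 to 83.3 RPKM in ducks and 42.6 RPKM in chicken, and *r* was 0.679 over 7 species (exact permutation p = 0.089) and -0.164 over the ducks. *GRIPAP1*, a Rab4 effector in the chicken annotation alone, was at 0.273 to 0.672 RPKM in ducks and 7.31 RPKM in chicken. It was under 1 RPKM in every duck and was tested only through its level in chicken. That filter fixed its higher level in chicken, so its *r* of -0.798 over 7 species is not independent of the filter. *KIF13A*, a motor of recycling endosomes, was at 11.02 to 14.7 RPKM in ducks and 4.05 RPKM in chicken, and its *r* was 0.772 (exact permutation p = 0.061). In the same list, *RUFY1* had an *r* of -0.238 (exact permutation p = 0.613) and *RBSN* of -0.154 (exact permutation p = 0.729). Of the 14, *r* over 7 species was positive for 11 and negative for 3, and it was positive for 58.1% of all rows. Over the ducks it was positive for 5 of the 14 and negative for 9, against 6346 and 6122 of all rows. None of the 6 tested partners of Rab40, among them the cullin *CUL5* at 28.9 to 37.3 RPKM in ducks and 21.2 RPKM in chicken, passed the threshold. The others were *RNF7*, *ELOC*, *RAP2A*, *RAP2B* and *RAP2C*, and *r* over the 6 ranged from -0.187 to 0.532.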

How the data were processed

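According to the processing notes of the submitters, the authors used Trimmomatic 0.36 for trimming, STAR 2.5.4b for alignment to the genomes of duck and of chicken, featureCounts (Subread 1.6.2) for counting and edgeR 3.22.3 to obtain RPKM. The deposited RPKM table has 1 column per species, the authors' mean of 3 birds, with duck and chicken genes joined by symbol. Which genome gave the value of a gene in both annotations was not given in the sources used here. In the paper's account, reads of every sample were aligned to both genomes. The duck genome was that of *Anas platyrhynchos*, the species of Pekin duck, so the other ducks had no genome of their own. Levels in rows of a single annotation therefore include reads aligned across species. In rows of both annotations, *RAB4A* and *PIEZO2* included, the same holds for every duck but Pekin duck. The effect of this on levels was not tested. Reads shared by close paralogues make their levels uncertain.

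Here, Pearson *r* with *PIEZO2* was computed over species means for rows with a mean of at least 1 RPKM, with two-sided exact permutation p over 5040 assignments (720 for the ducks) and Benjamini-Hochberg adjustment over all rows (Python 3.11.15, numpy 2.4.6, pandas 2.3.3). Ratios used a pseudocount of 1. The code was tested on simulated data. The rule for naming genes covered *PIEZO2*, *RAB4A*, members with an exact p under 0.05 and the 3 members most like *RAB4A*. It also covered the 5 members of largest ratio in each direction, of largest range among ducks and of highest level. Partners with an exact p under 0.05 and those of Rab4 and Rab40 were covered too. Not every gene under this rule is named here, and other members could be named with values. Members and lists were chosen with earlier results of these data known. The paper gives only a range of read pairs over the samples, so the depth of each library is unknown. No interval is given, since each species has 1 mean and no value for a bird. The design's alternative tests over single birds could not be run on species means.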

Additional observations from a re-analysis of the deposited data

Results flagged for a closer look

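In 3 of 50 members the highest or lowest duck stood apart from the other ducks by more than Dixon's 95% limit for the gap over the range, which chance passes in about 1 in 20 groups. The rule was applied to members alone, so the share of all rows past it is unknown. Ruddy duck was the lowest duck in 45.5% of all rows tested and the highest in 21.3%. *RAB11A* was at 395 RPKM in ruddy duck, the highest duck, with a gap of 0.744 of the range. *RAB35* was at 16.8 RPKM in ruddy duck, the lowest duck, with a gap of 0.732 of the range. *RAB2A* was at 402 RPKM in wood duck, the highest duck, with a gap of 0.787 of the range.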

How the results depend on the processing

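*RAB4A* kept a positive *r* with an exact p under 0.05 in 12 alternatives and a t-distribution p under it in the other, with *r* of 0.917 to 0.985. These alternatives reuse the levels for which *RAB4A* was chosen, so they are not independent evidence. The count of positive members was 5 as reported, 2 by rank correlation, 1 over the 6 ducks, 1 without the 2 species farthest in *PIEZO2* and 3 after quantile normalization, and 3 to 7 when each duck was left out in turn, with 3 without black duck and 3 without lesser scaup. The count of negative members was 6 as reported, 2 by rank correlation, 2 over the 6 ducks, 2 without the 2 farthest species, and 2 to 6 when each duck was left out, with 2 without harlequin duck. It was 4 after quantile normalization. After median-ratio scaling 4 members were positive and 8 negative, and the median *r* of the members was 0.02, against 0.24 as reported. Apart from the 6 ducks alone, the shares of all rows under these alternatives were not computed. Without harlequin duck, *RAB40C* (*r* of 0.918, exact permutation p = 0.0792) and *RAB18L* (*r* of -0.931, exact permutation p = 0.0542) lost their calls. For both, *r* was larger in size than over 7 species. With 1 duck left out, *RAB39B* lost its call without Pekin duck, black duck or lesser scaup (*r* of 0.727 to 0.753), *RAB28* without each duck but Pekin duck (0.745 to 0.819), *RAB7B* without Pekin or harlequin duck (-0.855 to -0.814), *RAB27A* without Pekin duck, lesser scaup, wood or harlequin duck (-0.912 to -0.818), and *RAB8B* without Pekin duck, black duck, lesser scaup or harlequin duck (-0.825 to -0.757). Members at least 2-fold lower in ducks numbered 6 as reported, 3 at a mean of at least 5 RPKM and 2 among rows in both annotations. The *r* of *RAB1B* was -0.179 by rank, -0.854 over the ducks and -0.967 without the 2 farthest species, against 0.62 as reported. Without those species *RAB27A* had 0.140 and *RAB7B* 0.774. Removing the 2 members that end in L, added after seeing the data, kept every count within 1.5 times its reported value. The causes were not tested. No paired analysis was possible because the table holds 1 mean per species and no value for a bird.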

Other observations

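In the gene order of a newer Pekin duck assembly (IASCAAS_PekinDuck_T2T, used for names and order alone), the genes next to *RAB40B* were, like it, higher in ducks than in chicken, at levels of their own. *FN3KRP*, next to it on one side, averaged 90.1 RPKM in ducks against 24.9 RPKM in chicken, with an *r* with *PIEZO2* of 0.889 over 7 species (exact permutation p = 0.0107). On the other side *WDR45B* averaged 38.1 RPKM in ducks against 11.9 RPKM in chicken, and *FOXK2*, the gene beyond it, 13.8 RPKM in ducks against 3.45 RPKM in chicken, with *r* of 0.871 and 0.892. *FN3K*, the gene beyond *FN3KRP*, had an *r* with *PIEZO2* of 0.455 over 7 species (exact permutation p = 0.290) and -0.271 over the ducks. Over the ducks alone, *r* with *RAB40B* was 0.893 for *FN3KRP*, 0.236 for *WDR45B* and 0.339 for *FOXK2*. These genes were singled out after their values were seen. Within 8 genes on each side, 3 of 14 tested neighbours of *RAB40B* had a positive *r* with an exact p under 0.05, as did 1 of 16 neighbours of *RAB4A*, where 2 were negative, 3 of 16 of *PIEZO2*, 0 of 15 of *RAB1A*, where 1 was negative, and 0 of 10 of *RAB40C*. Of all rows 6.25% were positive and 6.73% negative. Higher levels in ducks were not particular to the neighbours of *RAB40B*. On the log2(RPKM + 1) scale, the ratio to chicken had a median of 0.926 for them and 0.978 near *RAB40C*. The median was 0.567 near *RAB4A*, 0.461 near *PIEZO2* and 0.109 near *RAB1A*, against 0.223 for all rows. Some neighbours of *RAB40B* were lower in ducks, among them *KPNA2* (-0.685) and *TBCD* (-0.338). Of all rows, 20.3% were at least 2-fold higher in ducks. *RHOU* and *CCSAP*, next to *RAB4A*, had *r* of 0.272 and 0.462. The positive neighbour of *RAB4A* was *NUP133*, 3 genes away, with an *r* with *PIEZO2* of 0.893 (exact permutation p = 0.00972). Its *r* with *RAB4A* was 0.882 over 7 species and 0.685 over the ducks.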
